A study of Caenorhabditis elegans with 48 samples.

Results

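Gene expression after 288 h of starvation was compared with that after 192 h in whole larvae of Caenorhabditis elegans held in first-stage (L1) arrest, the interval in which most of the larvae died by the survival counts of the study. The 288 h and the 192 h group were both the wild-type strain N2, and both were kept from the embryo onwards in S-basal buffer with no food. The groups thus shared genotype and treatment. They differed in time and, as given below, in deaths and in the number of larvae collected. Each group had 4 mRNA-seq libraries, 1 from each of the biological replicates numbered 1, 5, 6 and 8, out of 48 libraries over 12 time points. All genes were considered and none was chosen by its change: of 44968 genes in each count table, 16987 were above 1 CPM, a count scaled to library size, in 4 or more of the 48 libraries and were tested. Every library was made from the same mass of RNA, and more larvae were collected at 192 h, and more again at 288 h, because of deaths. Whether dead larvae were removed is not given in the sources used here. Levels are therefore shares of the mRNA of the animals collected, and in whole animals fewer cells of a type and less RNA per cell cannot be told apart.

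Newly hatched C. elegans larvae that find no food stop developing, live on stored fat and carbohydrate, and can resume growth when fed. The secretory apparatus is watched over by the unfolded protein response of the endoplasmic reticulum (ER), in which the sensor IRE-1 splices the mRNA of the transcription factor XBP-1 and chaperones such as the BiP homologs HSP-3 and HSP-4 are induced. Genes for muscle filaments, gut enzymes, ribosomes and mitochondria are among the abundantly transcribed ones of a larva.

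The 288 h libraries held 11036160 to 13639328 gene counts and the 192 h libraries 12982614 to 15962842, and ribosomal RNA took 1.27 to 5.01% of them. Of the aligned reads, 5.50, 7.19, 5.82 and 5.91% lay outside annotated genes in the 288 h libraries of replicates 1, 5, 6 and 8, against 4.31, 5.07, 4.20 and 4.10% in the 192 h libraries of the same replicates. The groups did not overlap (exact permutation test, 2-sided, p = 0.0286, the smallest that 4 against 4 libraries allow, 0.0952 after adjustment over 10 library measures), and the highest value among the 44 libraries before 288 h was 5.51%. The 500 most abundant genes took 55.4 ± 0.873% of the counts at 288 h and 58.5 ± 0.695% at 192 h (SD, n = 4 each). The 288 h library of replicate 5 had both the largest share outside genes and the largest scaling factor of the 8, and without it 1529 genes were higher and 2712 lower at 288 h, against 1255 and 2948 with all libraries. The part of these measures in the results below was not tested.

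With the threshold at an adjusted p (false discovery rate, FDR) of 0.05, 4203 genes (24.7% of those tested) differed between 288 and 192 h, 1255 higher (7.39%) and 2948 lower (17.4%) at 288 h, with TMM scaling and edgeR's quasi-likelihood test. Of these, 392 rose and 830 fell at least 2-fold, and 79 rose and 88 fell at least 4-fold. All 4 replicate pairs went the same way in 1204 of the 1255 higher genes and in 2852 of the 2948 lower ones. The 4 values at 288 h lay above or below all 4 values at 192 h in 704 of the higher and 2365 of the lower genes. Over all genes tested the groups were apart in 22.1%. A mean CPM at 288 h above that of all 11 earlier time points was seen in 877 (69.9%) of the genes that rose, and 1853 (62.9%) of those that fell had their lowest mean of the time course at 288 h. Being called higher or lower than at 192 h favours such an extreme, and the shares over all genes tested are not given here.

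The split into higher and lower genes depended on the scaling. TMM assumes that most genes keep their level relative to each other. Without scaling factors, which makes each value a plain share of the gene counts, the log2 fold changes lay 0.21 higher at the median and 2035 genes were higher and 1273 lower at 288 h. With DESeq2 size factors the shift was 0.05 with 1565 higher and 2621 lower genes, and with upper-quartile factors it was 0.13 with 2096 and 2141. No gene was called in opposite directions under any pair of these scalings with TMM, and 2528 genes were called the same way under all 4, 1255 higher and 1273 lower. Among genes that changed at least 2-fold with TMM, all 392 that rose and 750 of the 830 that fell were among those 2528. Log2 fold changes and CPM values below are with TMM, and adding 0.21 gives about the value without scaling factors.

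**Figure D1:**
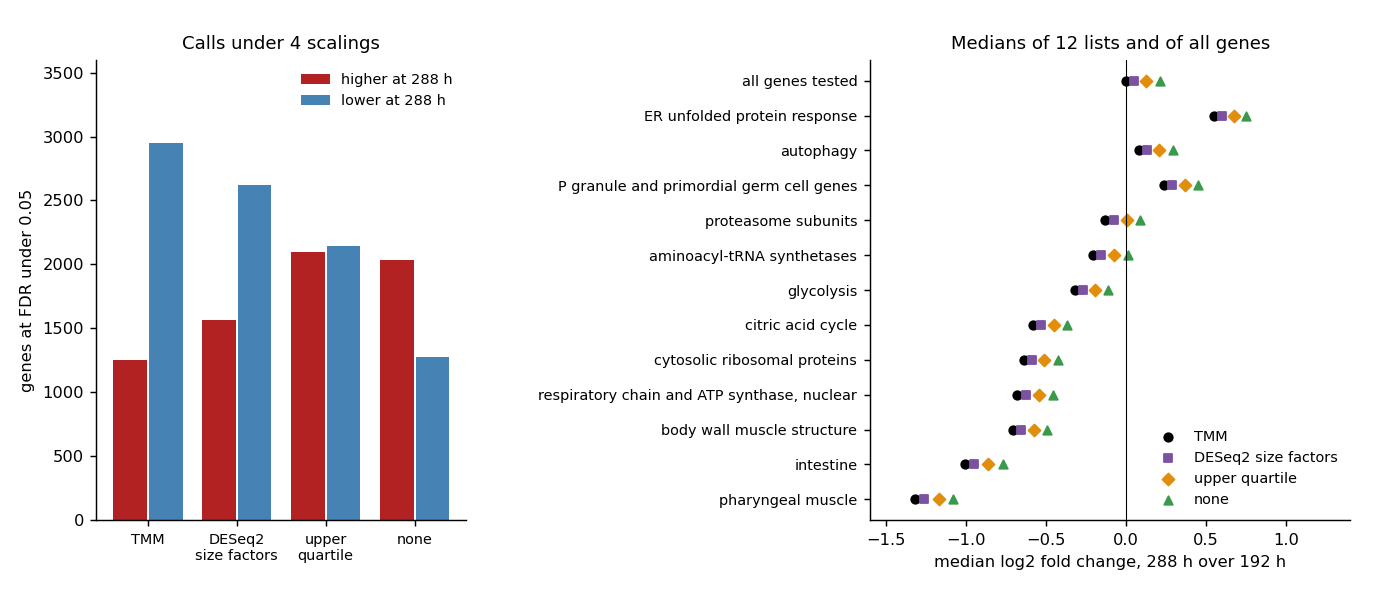
Left, number of genes higher or lower at 288 h than at 192 h at an FDR under 0.05 under each of 4 scalings. Right, median log2 fold change (288 h over 192 h) of all genes tested and of 12 gene lists under the same scalings. The lists for muscle, intestine, respiration and the cytosolic ribosome keep a negative median under all 4, the ER unfolded protein response keeps a positive one, and the proteasome and aminoacyl-tRNA synthetase lists change sign between TMM and no scaling factors.

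The share of genes called was not even over abundance. Among genes with a mean of at least 1000 CPM over the 8 libraries, 14 rose and 106 fell of 180, with a median log2 fold change of -0.43. From 10 to 30 CPM the median was -0.08, with 272 higher and 720 lower genes of 3136, and under 1 CPM it was 0.38, with 75 higher and 56 lower of 3141. Under 1 CPM the medians within the pairs of replicates 1, 5, 6 and 8 were 0, 0.24, 0.21 and 0.23. These were taken with 0.5 CPM added to each value, which shrinks the changes of such genes. The median over all 16987 genes was 0.00. Length was taken as all annotated exon sequence of a gene, for genes that encode neither ribosomal nor respiratory chain proteins. Those of under 600 nt had a median of -0.26 (449 genes of at least 10 CPM). The median was -0.04 at 3000 to 5000 nt (1035 genes) and -0.11 at 5000 nt or more (346 genes).

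**Figure D2:**
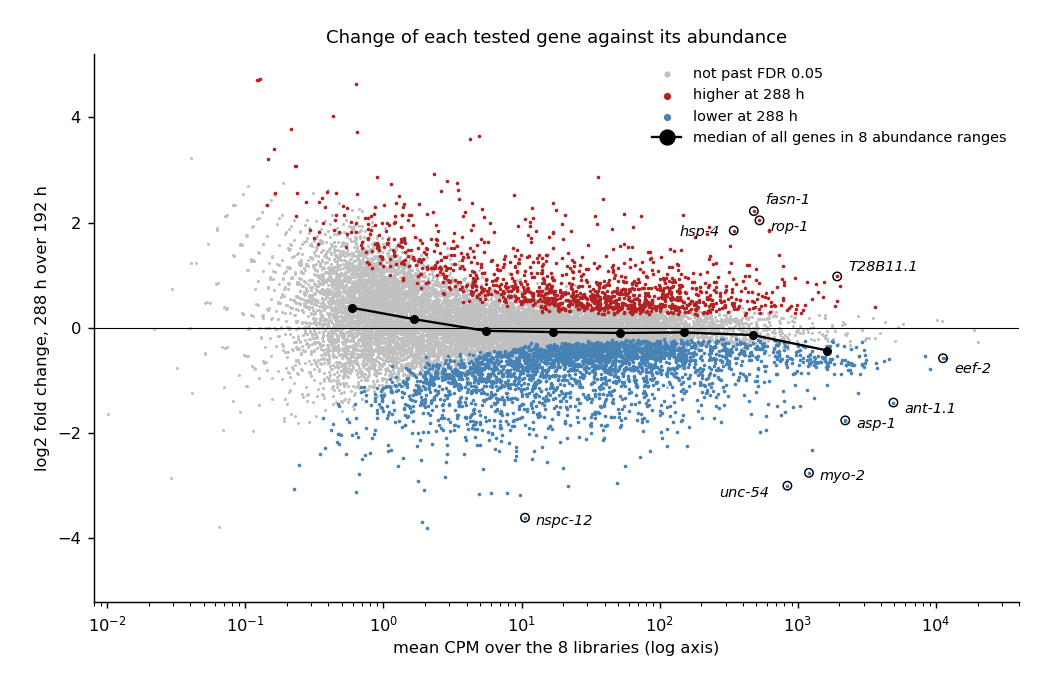
Log2 fold change (288 h over 192 h) of each of the 16987 genes tested against its mean CPM over the 8 libraries (log axis), with genes past an FDR of 0.05 in colour and the median in 8 abundance ranges as a line. The line falls from 0.38 under 1 CPM to -0.43 at 1000 CPM or more, and fasn-1, rop-1 and hsp-4 rose while unc-54, myo-2 and asp-1 fell.

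Muscle transcripts were among the largest falls of abundant genes. unc-54, the main myosin heavy chain of body wall muscle, was at 132, 233, 216 and 166 CPM in the 288 h libraries (replicates 1, 5, 6 and 8, the order used throughout), against 706, 1975, 1911 and 1383 CPM in the 192 h libraries. Every 288 h value lay below every 192 h value, and the log2 fold change was -2.998 ± 0.21 (SE; edgeR FDR = 5.38e-15). The body wall myosin heavy chain myo-3 was at 46.3, 57.7, 64.02 and 51.7 CPM at 288 h and at 167, 310, 356 and 213 CPM at 192 h, which did not overlap either (log2 -2.25 ± 0.17, edgeR FDR = 1.18e-13). Paramyosin (unc-15, log2 -1.94), troponin T (mup-2, -1.91), calsequestrin (csq-1, -1.85), a myosin light chain (mlc-3, -1.50) and twitchin (unc-22, -1.39) fell as well. Of 44 genes for body wall muscle structure, 31 fell and 3 rose, with a median of -0.71 (-0.49 without scaling factors, 22 lower and 4 higher). Those that rose were the beta-integrin pat-3 (0.56 ± 0.14), tmd-2 (0.52 ± 0.13), a homolog of tropomodulin, and the actin act-2 (0.54), whose call was lost without replicate 1 (edgeR FDR = 0.113), 6 (0.108) or 8 (0.0960) and which shares reads with near-identical actins. In all 3 the groups overlapped.

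The pharynx, the feeding organ, has its own myosins, and these fell too. myo-2 was at 133, 492, 336 and 282 CPM at 288 h, against 1942, 2416, 2040 and 1988 CPM at 192 h (log2 -2.75 ± 0.20, edgeR FDR = 1.45e-14). Its 192 h values were close to each other, whereas the 288 h values were spread, with replicate 1 lowest and replicate 5 highest. myo-1 (log2 -2.32), the troponin C tnc-2 (-1.65), the myosin heavy chain myo-5 (-1.40), the troponin I tni-4 (-1.32), the troponin T tnt-4 (-1.03) and ceh-22, a homeobox regulator of pharyngeal muscle (-0.98), were also lower. Of 9 pharyngeal muscle genes 8 fell and none rose, with a median of -1.32 (-1.08 without scaling factors, 7 lower). In the earlier interval from 24 to 96 h the change of unc-54 was -0.91 (edgeR FDR = 0.000335) and that of myo-2 was -0.18 (edgeR FDR = 0.570), and the difference between the 2 genes was not tested.

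**Figure D3:**
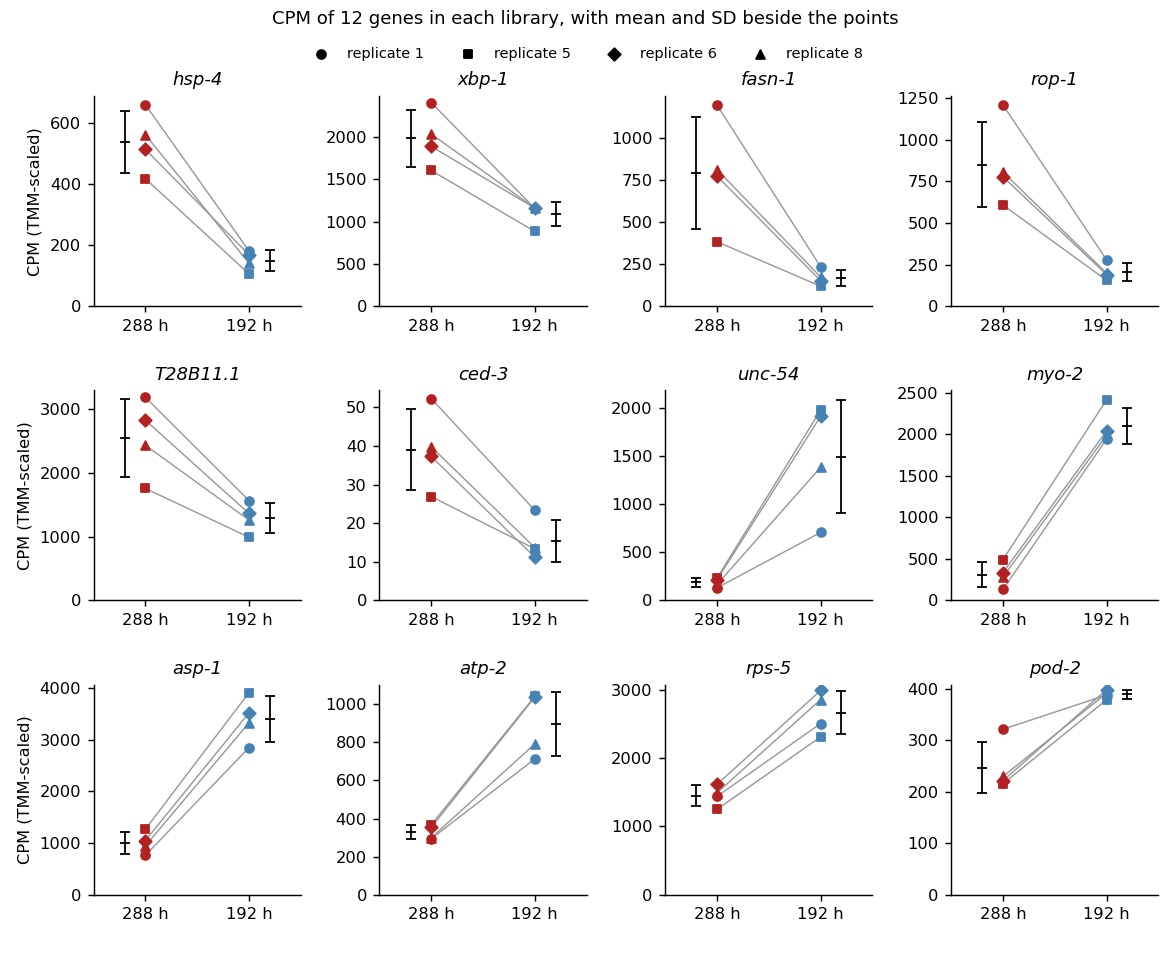
CPM (TMM-scaled) of 12 genes in each library at 288 h (left) and 192 h (right), with lines joining the libraries of a replicate and bars for the mean and SD (n = 4). The 288 h points of hsp-4, xbp-1, fasn-1, rop-1, T28B11.1 and ced-3 lie above all 192 h points, and those of unc-54, myo-2, asp-1, atp-2, rps-5 and pod-2 lie below them.

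Transcripts of the intestine fell too. asp-1, a gut aspartyl protease, was at 762, 1268, 1048 and 945 CPM at 288 h and at 2846, 3911, 3520 and 3328 CPM at 192 h (log2 -1.76 ± 0.14, edgeR FDR = 4.77e-13). The intestinal intermediate filament ifb-2 was at 232, 371, 248 and 276 CPM at 288 h, against 786, 1003, 868 and 936 CPM at 192 h (log2 -1.67 ± 0.14, edgeR FDR = 3.56e-13). In both genes the groups were far apart, and 288 h replicate 5 was the highest of its group. The intestinal proton pump subunit vha-6 (-1.72), the peptide transporter pept-1 (-1.01) and the saposin-like spp-8 (-1.33) fell, and the gut actin act-5 was at -0.22 ± 0.18 without passing the test. Of 25 intestinal genes 18 fell and none rose, with a median of -1.01 (-0.77 without scaling factors, 15 lower). Lysosomal and gut proteases gave 24 lower and 0 higher of 32, with a median of -1.102, led by the aspartyl protease asp-2 (log2 -2.34 ± 0.17), the cathepsin B-like cpr-9 (-2.12) and the carboxypeptidase ctsa-2 (-2.00).

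Lists for defence and detoxification were mixed, set against the 17.4% of all genes that fell. Lysozymes and antimicrobial peptides gave 18 lower (28.1%) and 2 higher of 64, with lys-8, a lysozyme, at -1.62, and C-type lectins gave 41 lower (25.5%) and 5 higher of 161, with clec-50 (-2.16) and clec-63 (-1.65) among the lower members of at least 10 CPM. The lectin median was 0.02, 115 of the 161 did not pass the test, and the higher count was 2 without replicate 1 or 6, 3 without replicate 5, 1 without replicate 8. A replicate block gave 8 higher lectins. irg-7, an infection response gene expressed in the intestine, was at 26.9, 50.95, 38.3 and 41.0 CPM at 288 h, against 159, 188, 203 and 194 CPM at 192 h (log2 -2.24 ± 0.16, edgeR FDR = 2.45e-14). Glutathione S-transferases gave 17 lower (37.8%) and 1 higher of 45 (0 higher without replicate 1 and 3 without replicate 5, 2 with replicate as a block) with a median of -0.61, and gst-20 fell by 1.50 on the log2 scale. Genes known as DAF-16 targets or for oxidative stress defence gave 16 lower (51.6%) of 31, among them the catalase ctl-1 (-1.24) and dod-6 (-1.57), and 3 higher, a count that was 0 without replicate 6 or replicate 8.

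Most transcripts for mitochondrial respiration fell. atp-2, the catalytic beta subunit of ATP synthase, was at 294, 367, 353 and 299 CPM at 288 h, against 713, 1042, 1038 and 792 CPM at 192 h (log2 -1.45 ± 0.13, edgeR FDR = 8.99e-12). ant-1.1, the carrier that exchanges ADP for ATP across the inner membrane, was at 2216, 2955, 3031 and 2512 CPM at 288 h and at 5881, 7775, 8484 and 6494 CPM at 192 h (log2 -1.42 ± 0.13, edgeR FDR = 6.69e-12). Neither gene overlapped between groups, and ant-1.1 was among the 5 genes that lost most CPM. Of 46 nuclear genes for the respiratory chain and ATP synthase 36 fell and none rose, with a median of -0.68 (-0.46 without scaling factors, 21 lower and 1 higher, and 1 higher with replicate as a block). Examples are the ATP synthase alpha subunit atp-1 (-1.21) and the cytochrome oxidase subunits cox-6B (-1.15) and cox-4 (-0.995).

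The genes encoded in the mitochondrial genome moved likewise. COX3, a cytochrome oxidase subunit, was at 692, 905, 936 and 856 CPM at 288 h and at 1475, 1226, 1616 and 1786 CPM at 192 h (log2 -0.85 ± 0.15, edgeR FDR = 1.33e-05). The groups lay apart although 192 h replicate 5 was low. Of 8 such genes tested 7 fell and none rose, with a median of -0.81. The eighth, ND6, was at -0.57 ± 0.28 (edgeR FDR = 0.131) and passed only with replicate as a block. In the citric acid cycle 18 of 20 genes fell (8 without scaling factors), with a median of -0.58, led by dihydrolipoyl dehydrogenase dld-1 (-1.22) and isocitrate dehydrogenase idha-1 (-0.96). The exception that rose was sucg-1, a succinyl-CoA synthetase subunit, by 0.66 ± 0.12.

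Glycolysis was more mixed. Of 18 genes 9 fell (50%, against 17.4% of all genes) and 2 rose (11.1%, against 7.39%), with a median of -0.32. However, without scaling factors 1 fell and 3 rose, and without replicate 1, 6 or 8 the higher count was 1. The aldolase aldo-2 fell by 1.19 on the log2 scale. ldh-1, the lactate dehydrogenase, was at 91.7, 37.7, 61.3 and 56.0 CPM at 288 h, against 33.9, 26.8, 30.9 and 27.3 CPM at 192 h (log2 1.05 ± 0.17, edgeR FDR = 2.82e-06). All its 288 h values were above the 192 h ones, that of replicate 5 only just. Between 24 and 96 h it had fallen by 0.87 on the log2 scale (edgeR FDR = 0.000160). The glycogenin gyg-1, which starts glycogen chains, rose by 0.85 ± 0.15, whereas aagr-1, an acid alpha-glucosidase that breaks glycogen down in lysosomes, was at -1.69 ± 0.14 and the gluconeogenic PEP carboxykinase pck-2 at -0.93 ± 0.11.

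Most ribosomal protein mRNAs fell. rps-5 was at 1439, 1250, 1615 and 1491 CPM at 288 h and at 2505, 2309, 2989 and 2856 CPM at 192 h (log2 -0.88 ± 0.13, edgeR FDR = 6.26e-07). rpl-4 was at 4088, 3078, 3694 and 3749 CPM at 288 h and at 5307, 5114, 5813 and 5657 CPM at 192 h (log2 -0.58 ± 0.11, edgeR FDR = 5.29e-05), and its call was lost without scaling factors (edgeR FDR = 0.0835). For both genes the groups lay apart. Of 80 cytosolic ribosomal protein genes 72 fell and none rose, with a median of -0.64 and a range of -0.88 to 0.13. Without scaling factors the median was -0.43 and 30 fell. The 80 genes summed to 89899 ± 11079 CPM at 288 h and 139410 ± 19343 CPM at 192 h (SD, n = 4 each), a ratio of 0.645. Elongation factor eef-2 fell by 0.58 on the log2 scale (edgeR FDR = 0.0744 without scaling factors), and eef-1A.1, at -0.27 ± 0.11, passed only with replicate as a block. Mitochondrial ribosomal proteins gave 26 lower (38.2%, against 17.4% of all genes) and 1 higher (1.47%, against 7.39%) of 68. Their median was -0.29, mrpl-2 (-1.06) led the falls, and without scaling factors 3 of them were lower and 3 higher. The higher count was 2 without replicate 5 or with replicate as a block.

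Genes that charge tRNAs and degrade proteins changed less, and their direction rested on the scaling. With TMM 17.4% of all genes were lower and 7.39% higher. Aminoacyl-tRNA synthetases gave 14 lower (42.4%) and 4 higher (12.1%) of 33 with a median of -0.21 with TMM, against 0 lower, 4 higher and 0.01 without scaling factors. Without replicate 6 the lower count was 9. The higher count was 2 without replicate 1 or 8. The asparaginyl-tRNA synthetase nars-1 rose by 0.96 ± 0.17. Proteasome subunits gave 8 lower (24.2%) and 1 higher (3.03%) of 33 with a median of -0.13 with TMM, against 0 lower, 2 higher and 0.09 without scaling factors. Without any 1 replicate the lower count was 4 to 5.

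**Figure D4:**
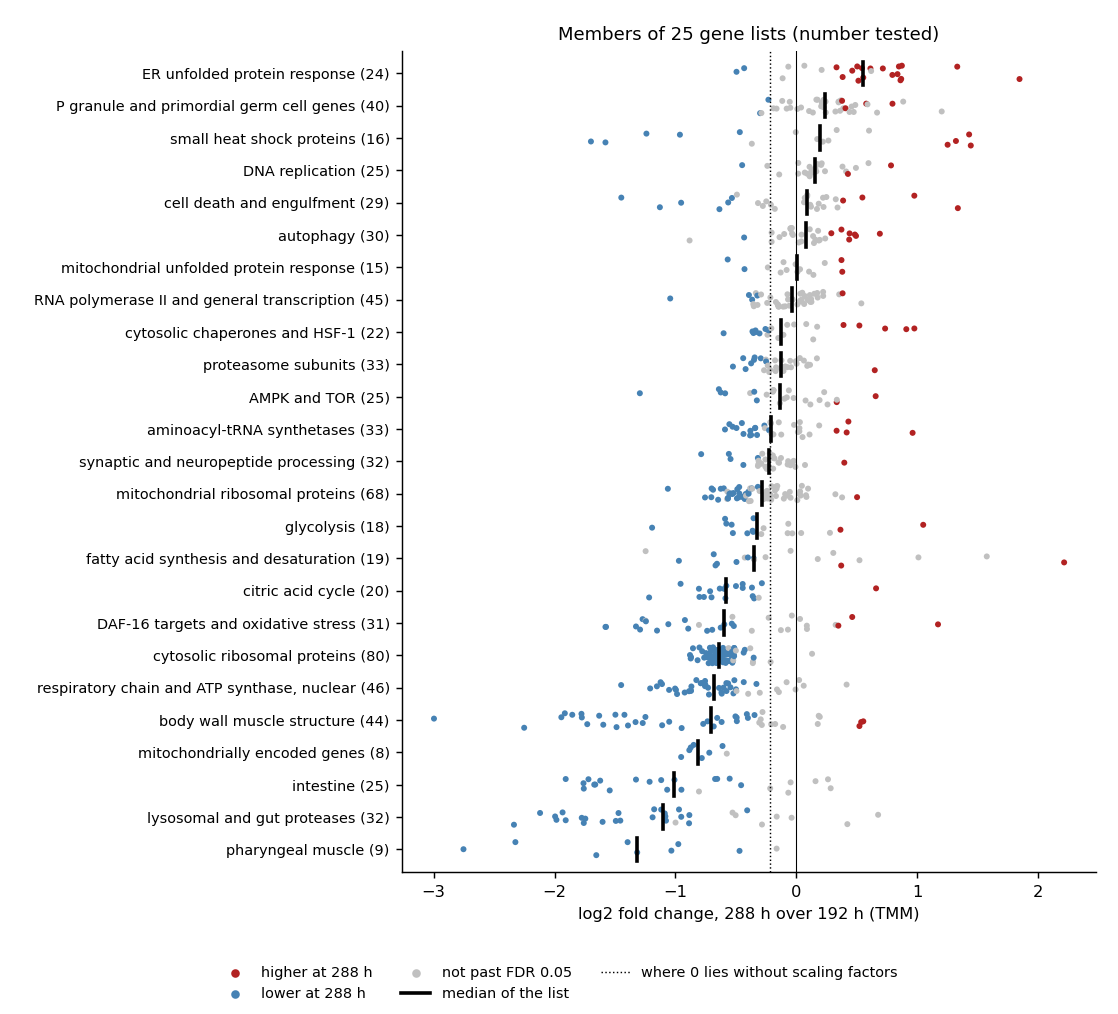
Log2 fold change (288 h over 192 h, TMM) of each tested member of 25 gene lists, with the number tested in brackets, members past an FDR of 0.05 in colour and the list's median as a black bar. The dotted line at -0.21 marks where a value of 0 without scaling factors falls, and the medians of the lists for the ER unfolded protein response (0.55) and the pharyngeal muscle (-1.32) are the ends of the range.

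Most genes of the ER unfolded protein response rose. hsp-4, a BiP homolog and the standard reporter of ER stress, was at 659, 417, 513 and 561 CPM at 288 h and at 181, 106, 169 and 141 CPM at 192 h (log2 1.85 ± 0.32, edgeR FDR = 1.61e-05). xbp-1 was at 2404, 1604, 1888 and 2033 CPM at 288 h and at 1156, 883, 1159 and 1160 CPM at 192 h (log2 0.86 ± 0.10, edgeR FDR = 9.10e-09). In both genes the lowest 288 h value exceeded the highest 192 h value. The counts do not separate the spliced from the unspliced form of xbp-1. The other BiP homolog hsp-3 was at 2129, 1550, 1489 and 1774 CPM at 288 h and at 1101, 896, 983 and 901 CPM at 192 h (log2 0.84 ± 0.10, edgeR FDR = 1.35e-08).

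Folding enzymes of the ER moved with them. The protein disulfide isomerase pdi-2 was at 1776, 1390, 1214 and 1635 CPM at 288 h and at 887, 753, 803 and 837 CPM at 192 h (log2 0.87 ± 0.12, edgeR FDR = 2.96e-07), and pdi-6 (0.87), pdi-3 (0.80) and pdi-1 (0.51) rose as well. The J-domain co-chaperone dnj-7 (0.85), the HSP90 homolog of the ER enpl-1 (0.52), the ubiquitin ligase of ER-associated degradation sel-11 (0.72), the ER stress-induced secreted factor manf-1 (0.61) and the choline kinase ckb-2 (1.33) were higher, as was pek-1 (0.56), the PERK sensor kinase. Of 24 genes 17 rose and 2 fell, with a median of 0.55. Without scaling factors 19 rose and none fell, with a median of 0.75, and without replicate 8 the higher count was 14. The 2 that fell, the sensor atf-6 (-0.49) and calnexin cnx-1 (-0.43), lost the call without scaling factors. The sensor ire-1 (0.21 ± 0.10), the translation-control factor atf-4 (-0.11 ± 0.12) and calreticulin crt-1 (0.07 ± 0.11) did not pass, though ire-1 did under the other scalings (edgeR FDR = 0.0309 without factors, 0.0459 with those of DESeq2, 0.00947 with the upper quartile). The thioredoxin-like dnj-27 (0.62 ± 0.27, edgeR FDR = 0.0972) passed only with replicate as a block.

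Cytosolic and mitochondrial chaperones did not move as groups. The heat shock factor hsf-1 (0.74 ± 0.11), the HSP70 nucleotide exchange factor hsp-110 (0.98 ± 0.23) and the J-domain protein dnj-13 (0.91 ± 0.18) rose, and the chaperonin subunit cct-1 fell by 0.60 on the log2 scale. Over 22 cytosolic chaperone genes 5 rose (22.7%, against 7.39% of all genes) and 8 fell (36.4%, against 17.4%) with a median of -0.13 with TMM. These were 5, 1 and 0.08 without scaling factors. The lower count was 3 without replicate 5, 5 without replicate 6 and 4 without replicate 8, the higher one 3 without replicate 1. hsp-90 was at 0.14 ± 0.12 (edgeR FDR = 0.439). Of 15 genes of the mitochondrial unfolded protein response 2 rose (13.3%, and 1 without replicate 1) and 2 fell (13.3%), and its markers hsp-6 (-0.13 ± 0.12) and hsp-60 (0.24 ± 0.14) did not pass.

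Of 16 small heat shock proteins 4 rose (25%, against 7.39% of all genes) and 5 fell (31.25%, against 17.4%). hsp-16.48 was at 154.7, 60.4, 166 and 118.5 CPM at 288 h and at 42.99, 22.8, 60.6 and 58.9 CPM at 192 h (log2 1.43 ± 0.49, edgeR FDR = 0.0259), where replicate 5 was lowest in both groups and its 288 h value lay within the 192 h range. It and its near-identical copies hsp-16.49 (1.45), hsp-16.1 (1.32) and hsp-16.11 (1.25), which reads cannot fully separate, made up the 4 that rose, and all 4 calls were lost without replicate 6 (edgeR FDR = 0.118, 0.113, 0.0898 and 0.116) and without replicate 8 (edgeR FDR = 0.0786, 0.0877, 0.0708 and 0.0893). hsp-12.2 (-1.70 ± 0.17), hsp-12.6 (-1.58 ± 0.25), hsp-17 (-1.24 ± 0.27), hsp-25 (-0.96 ± 0.13) and hsp-43 (-0.47 ± 0.11) fell, hsp-43 not without scaling factors. The other hsp-16 genes hsp-16.2 (0.17 ± 0.43), hsp-16.41 (0.34 ± 0.39) and hsp-16.21 (0.60 ± 0.30) did not pass, although hsp-16.21 did without scaling factors (edgeR FDR = 0.0424) and with replicate as a block (edgeR FDR = 0.0177). The HSP70-like pair F44E5.4 and F44E5.5, whose sequences are near-identical and which were chosen after their values were seen, rose by 1.86 ± 0.49 and 1.84 ± 0.49, with F44E5.4 at 1446, 538, 983 and 878 CPM at 288 h and 326, 148, 291 and 297 CPM at 192 h.

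Within lipid metabolism the enzymes of one route went opposite ways. fasn-1, the fatty acid synthase, had the largest rise among genes that met the naming rule, at 1195, 383, 773 and 812 CPM at 288 h and at 235, 119.3, 152 and 174 CPM at 192 h (log2 2.22 ± 0.22, edgeR FDR = 1.08e-10). pod-2, the acetyl-CoA carboxylase that makes its substrate, was at 322, 215, 222 and 230 CPM at 288 h and at 388, 379, 398 and 391 CPM at 192 h (log2 -0.66 ± 0.13, edgeR FDR = 0.000144). Neither gene overlapped between groups. Replicate 1 was the highest 288 h library for both, and replicate 5 the lowest. Of the desaturases fat-3 fell (-0.97 ± 0.15) and fat-6 was at -0.25 ± 0.20 without passing. Over 19 genes of fatty acid synthesis and desaturation 2 rose (10.5%, against 7.39% of all genes) and 7 fell (36.8%, against 17.4%). The higher count was 1 without replicate 1 or 8, and without scaling factors 4 rose and 2 fell. The perilipin plin-1, which coats lipid droplets, rose by 1.45 ± 0.17, the lysosomal lipases lipl-5 and lipl-2 were at -1.59 ± 0.19 and -1.52 ± 0.22, and the adipose triglyceride lipase atgl-1 was at 0.14 ± 0.11 without passing.

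A few genes of cell death and engulfment passed the test, in both directions. ced-3, the caspase that executes programmed cell death, was at 52.3, 26.9, 37.3 and 39.8 CPM at 288 h and at 23.4, 13.4, 11.2 and 13.7 CPM at 192 h (log2 1.34 ± 0.26, edgeR FDR = 6.35e-05). crn-4, a nuclease that takes part in DNA degradation in dying cells, was at 23.7, 18.6, 14.0 and 16.36 CPM at 288 h and at 4.83, 6.89, 3.11 and 4.13 CPM at 192 h (log2 1.93 ± 0.44, edgeR FDR = 0.000567). Both genes lay apart between groups, and their replicates did not rank alike. The calpain protease clp-4 rose by 0.98 ± 0.13, while the lysosomal DNase nuc-1 was at -1.45 ± 0.14 and the calpain clp-1 at -0.95 ± 0.11. Over 29 genes for cell death and engulfment 4 rose (13.8%, against 7.39% of all genes) and 6 fell (20.7%, against 17.4%) with a median of 0.09, and without scaling factors 9 rose and 3 fell.

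In autophagy 7 of 30 genes rose (23.3%, against 7.39% of all genes) and 1 fell (3.33%, against 17.4%), with a median of 0.08 (10 and 0 without scaling factors). The higher count was 4 without replicate 1, 3 without replicate 6 and 4 without replicate 8, the lower one 2 with replicate as a block. The autophagy scaffold epg-7 rose by 0.69 ± 0.11 and the E1-like enzyme atg-7 by 0.49 ± 0.12. Of the energy-sensing kinase AMPK, the catalytic subunit aak-1 was at 935, 524, 743 and 699 CPM at 288 h and at 564, 333, 462 and 479 CPM at 192 h (log2 0.66 ± 0.16, edgeR FDR = 0.00115), with replicate 5 at 288 h within the 192 h range. The other catalytic subunit aak-2 was at -0.08 ± 0.09 (edgeR FDR = 0.594), and the gamma subunit aakg-5 fell by 1.29 on the log2 scale. The insulin receptor daf-2 (-0.20 ± 0.14), its FoxO factor daf-16 (0.05 ± 0.13), the TOR kinase let-363 (-0.13 ± 0.11) and hlh-30, a regulator of autophagy and fat use (0.04 ± 0.13), did not pass.

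Other large rises came from single genes of varied function. rop-1, the homolog of the RNA-binding protein Ro60, was at 1207, 607, 777 and 806 CPM at 288 h and at 279, 156, 190 and 199 CPM at 192 h (log2 2.04 ± 0.27, edgeR FDR = 6.64e-08). cnp-3 was at 129, 47.5, 106 and 80.0 CPM at 288 h and at 22.1, 16.3, 27.2 and 15.5 CPM at 192 h (log2 2.16 ± 0.21, edgeR FDR = 3.60e-11). In both the groups lay apart, with replicate 5 the lowest at 288 h. The ABC transporter pgp-6 was at 31.1, 32.7, 17.2 and 23.9 CPM at 288 h and at 9.00, 6.31, 6.06 and 8.26 CPM at 192 h (log2 1.82 ± 0.41, edgeR FDR = 0.000591), and its close copy pgp-7, which shares reads with it, rose by 1.76 ± 0.43.

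The remaining names among the 12 largest rises were the infection response gene irg-2 (2.06), the F-box genes fbxc-58 (2.00) and fbxa-155 (1.88), the ARF-like GTPase warf-1 (1.97) and the pseudogene arl-7 (1.85). T28B11.1, which has no gene symbol and gained the most CPM, was at 3190, 1760, 2830 and 2438 CPM at 288 h and at 1568, 993, 1367 and 1264 CPM at 192 h (log2 0.98 ± 0.13, edgeR FDR = 4.94e-08). Its groups did not overlap. The bZIP transcription factors zip-2 (1.39 ± 0.18) and cebp-1 (1.55 ± 0.23), both known from responses to infection or damage, rose too and were chosen after their values were seen.

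Among the 12 largest falls, nspc-12, a member of a family of small peptide genes, was at 1.06 to 2.31 CPM over the 4 libraries at 288 h and at 15.02 to 25.3 CPM over those at 192 h (log2 -3.61 ± 0.25, edgeR FDR = 5.38e-15). The others beside the muscle and protease genes given above were kola-5 (-2.94), hrg-11.3 (-2.66), pqn-75 (-2.63), the LysM domain gene lmd-5 (-2.55), nspc-20 (-2.48), the neprilysin nep-17 (-2.45) and the astacin protease nas-9 (-2.33). The largest loss in CPM was that of tts-1, a long non-coding RNA known to associate with ribosomes, at 5891, 5685, 8240 and 6623 CPM at 288 h and at 9731, 9914, 13255 and 12479 CPM at 192 h (log2 -0.78 ± 0.17, edgeR FDR = 0.000273).

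Marker transcripts were summed by tissue. The 5 markers of body wall muscle summed to 1316 to 1366 CPM at 288 h and 3257 to 4842 CPM at 192 h, 4 of pharyngeal muscle to 442 to 1351 and 4326 to 5342 CPM, and 6 of the intestine to 1050 to 1700 and 3717 to 4996 CPM. In each of these the groups did not overlap, and the ratios of the mean sums were 0.319, 0.197 and 0.306. Most of the intestinal sum was asp-1, with means of 1006 CPM at 288 h and 3401 CPM at 192 h. Of the 6 intestinal markers, cpr-5 (-1.91), asp-1 (-1.76), ifb-2 (-1.67), ges-1 (-0.67) and elt-2 (-0.46) fell, and act-5 (-0.22) did not pass. The elt-2 call was lost without replicate 1, 6 or 8. For 6 neuronal markers the sums were 2273 to 3249 CPM at 288 h and 3009 to 3414 CPM at 192 h (ratio 0.858), for 5 of the hypodermis and seam 67.9 to 85.6 and 75.1 to 86.5 CPM (0.981), and for 5 of the primordial germ cells 36.8 to 53.3 and 30.5 to 58.8 CPM (1.08), which all overlapped. Most of the neuronal sum was egl-21, with means of 2187 CPM at 288 h and 2590 CPM at 192 h. Most of the hypodermal sum was lin-26, with means of 54.9 CPM at 288 h and 48.7 CPM at 192 h. The longer list of 24 hypodermis and seam genes summed to 1338 to 1488 CPM at 288 h and 1958 to 2225 CPM at 192 h (0.673), without overlap. The pairs of markers for the excretory cell summed to 45.9 to 73.4 CPM at 288 h and 107 to 131 CPM at 192 h (0.487), and those for glia to 32.2 to 46.3 and 63.5 to 66.0 CPM (0.596), neither of which overlapped, while those for coelomocytes gave 20.7 to 34.96 and 24.5 to 47.2 CPM (0.741). In these, vha-5 (-1.40 ± 0.11), fig-1 (-0.78 ± 0.15) and unc-122 (-0.52 ± 0.13) fell and the other member of each pair did not pass. None of the neuronal and germ cell markers passed the test, and of the hypodermal ones elt-3, a GATA factor, did (-1.16 ± 0.18). The differences between tissues were not tested.

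In the nervous system the neuropeptide-processing convertase egl-3 was at 3402, 2343, 2923 and 2682 CPM at 288 h and at 3474, 3050, 3446 and 3327 CPM at 192 h (log2 -0.23 ± 0.14, edgeR FDR = 0.251), with overlapping groups. Of 32 genes for synapses and neuropeptide processing 1 rose and 5 fell (15.6%, against 17.4% of all genes), with a median of -0.22. Of 106 flp and nlp neuropeptide genes 2 rose and 20 fell (18.9%), with a median of -0.21. Without scaling factors these were 1 and 0 (median -0.01) and 3 and 3 (median -0.01). The synaptic counts were 0 higher without replicate 1, 5 or 6 and 3 lower without replicate 5 or 8, and the neuropeptide count of 20 was 11 without replicate 1, 12 without replicate 5 and 9 without replicate 8. With replicate as a block 8 synaptic and 33 neuropeptide genes were lower. The peptide gene nlp-67 rose by 0.88 ± 0.17 and nlp-36 was at -0.87 ± 0.16. Of 40 genes of P granules and primordial germ cells 4 rose (10%, against 7.39% of all genes) and 2 fell (5%, against 17.4%), with a median of 0.24. The higher count was 2 without replicate 1 and 1 without replicate 6 or 8, the lower one 0 without replicate 1 or 8 and 1 without replicate 5 or 6. Of 45 genes of RNA polymerase II and general transcription 1 rose (2.22%, and 0 without replicate 1 or 8) and 4 fell (8.89%, and 2 without replicate 1, 6 or 8). Both shares were below those of all genes. The largest subunit of the polymerase, ama-1, was at 0.12 ± 0.16 without passing. The major sperm protein genes, which only later stages use, had 108 counts in all at 288 h and 56 at 192 h, over 35 genes of which none was tested.

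To set the interval beside an earlier one with no library in common, 96 h was compared with 24 h in the same fit. There 1854 genes rose (10.9%) and 1881 fell (11.1%) at 96 h. From 192 to 288 h the counts were 1255 higher and 2948 lower with TMM, and 2035 and 1273 without scaling factors. Genes that fell in both intervals numbered 716, which is 38.1% of those that fell early and 24.3% of those that fell late. Genes that rose in both numbered 241, which is 13% of the early and 19.2% of the late rises. In addition, 401 genes rose early and fell late (21.6% of the early rises and 13.6% of the late falls), and 117 fell early and rose late (6.22% and 9.32%). The change itself differed between the intervals in 3711 genes (21.8%) by the edgeR test of the difference, being more positive from 192 to 288 h in 1144 (6.73%) and more negative in 2567 (15.1%). All 401 and all 117 genes were among them, which follows largely from their selection, as changes called in opposite directions add up in that difference. One 24 h library, that of replicate 8, had 29.2% ribosomal RNA. The count was 3742 with ribosomal RNA and mitochondrially encoded genes left out of the scaling, 2502 without replicate 8 and 2467 without scaling factors.

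Counts by list can be set side by side for the 2 intervals. Cytosolic ribosomal proteins had a median change of 0.16 from 24 to 96 h, with 1 higher and 0 lower of 80, against -0.64 with 72 lower from 192 to 288 h, and the difference was called below 0 in 67. Their summed CPM was highest at 96 h among the 12 time points (145500) and was 89899 at 288 h. Neuropeptide genes gave 58 higher and 7 lower of 106 early, against 2 and 20 late (18.9% lower, where all genes gave 17.4%), with the difference called below 0 in 58 and above 0 in 1. In the other direction, F-box A genes gave 10 higher and 33 lower of 175 early, against 22 and 13 late. The difference was called above 0 in 30 of them and below 0 in 8. Their late higher count was 12 without replicate 1, and without scaling factors 35 were higher and 8 lower late. Of all genes, 10.9% were higher and 11.1% lower early, against 7.39% and 17.4% late. The difference was called above 0 in 6.73% of all genes and below 0 in 15.1%. ER unfolded protein response genes gave 10 higher and 1 lower early, against 17 and 2 late, with the difference called above 0 in 7 of 24 and below 0 in 2. Those above 0 included hsp-4 (log2 difference 1.45 ± 0.46, edgeR FDR = 0.0170), ckb-2 (1.46 ± 0.38, edgeR FDR = 0.00371), dnj-7 (0.70 ± 0.15, edgeR FDR = 0.000328) and pdi-6 (0.65 ± 0.17, edgeR FDR = 0.00395), whereas hsp-3, xbp-1, pdi-2 and pdi-3 did not pass.

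Over the whole time course the late rises took several forms. hsp-4 averaged 25.3 to 62.95 CPM at the 10 time points up to 96 h, 149 ± 33.4 at 192 h and 538 ± 101 at 288 h (SD, n = 4). fasn-1 averaged 365 CPM at -2 h and 116 CPM at 96 h before 170 at 192 h and 791 at 288 h. pgp-6 reached 60.9 CPM at 12 h, 3.10 at 96 h, 7.41 at 192 h and 26.2 at 288 h, so that its 288 h mean stayed below that at 12 h. unc-54 was highest at 24 h (9287 CPM), and rpl-4 at 96 h (5548 CPM).

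**Figure D5:**
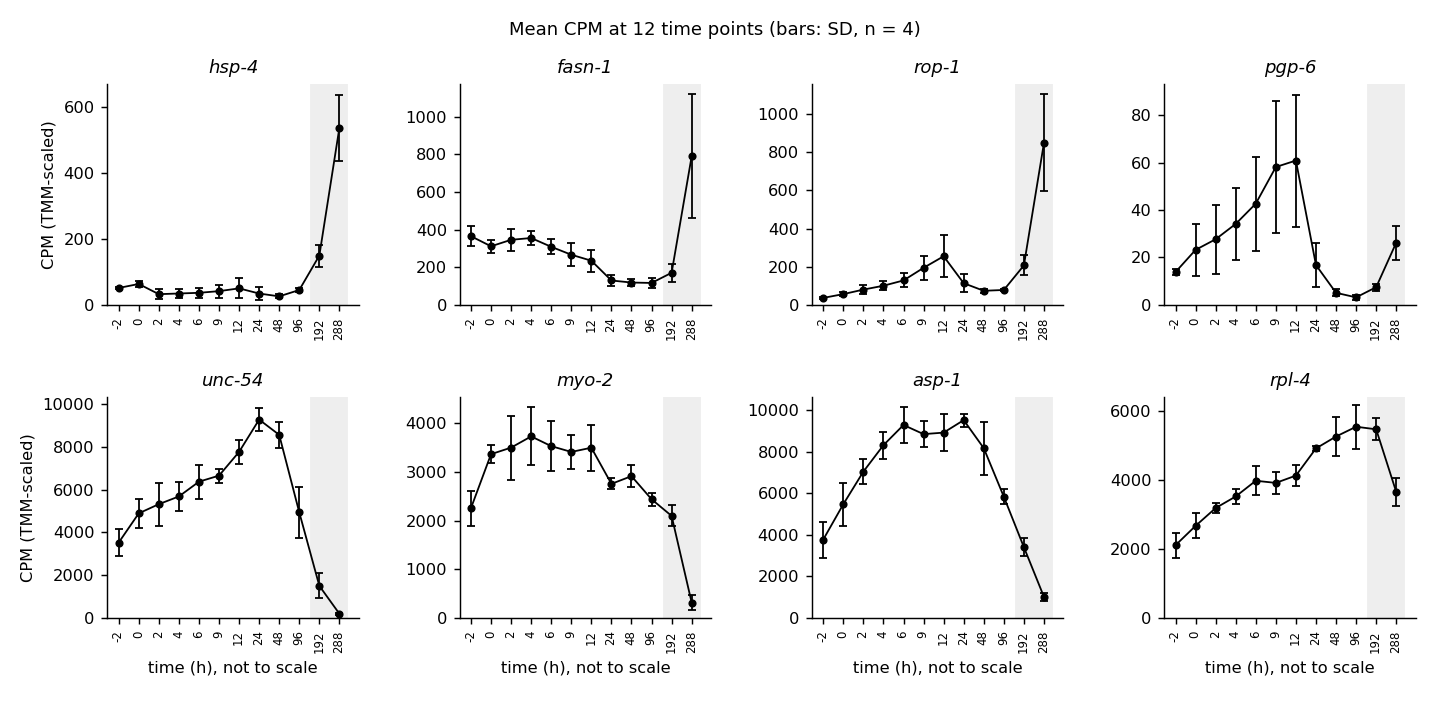
Mean CPM (TMM-scaled; bars, SD, n = 4) of 8 genes at the 12 time points from -2 to 288 h, evenly spaced rather than to scale, with 192 and 288 h shaded. hsp-4, fasn-1 and rop-1 have their highest mean at 288 h, pgp-6 peaks at 12 h, and unc-54, myo-2 and asp-1 have their lowest mean at 288 h, whereas that of rpl-4 is at -2 h.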

How the data were processed

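Single-end mRNA-seq reads of 48 libraries had been mapped by the authors with bowtie to WS210, keeping reads with at most 2 locations, and counted per gene with HTSeq. The deposited values are raw counts per gene, 1 table a library. The strand setting is not given in the sources used here, so overlapping and near-identical genes are uncertain. The 5 summary entries of each table held 23.6 to 26.6% of the reads in the 8 libraries compared and were left out. Library depth was 10164115 to 15962842 gene counts. No molecular identifiers were used. Groups and replicate numbers came from the labels.

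The study's filter was used, which keeps genes above 1 CPM in 4 or more libraries. Counts were scaled with TMM and tested with the edgeR 4.0.16 quasi-likelihood F test (R 4.3.3, limma 3.58.1) in a fit of all 12 time points without a replicate block, 2-sided, with Benjamini-Hochberg adjustment over all genes tested and a threshold of 0.05. Standard errors were derived from the F statistic, as the absolute log2 fold change over its square root. Library measures used exact permutation tests. The p-values measure only the spread between these samples.

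Same-numbered libraries deviated together after group means were removed (Pearson r across genes 0.28, 0.64, 0.44 and 0.20 for replicates 1, 5, 6 and 8), and each correlated best with its own number. By the methods, each replicate but 1 was a lone culture sampled repeatedly, and the remaining replicate drew on several cultures. Which number that replicate carries is not stated in the sources used here. Pairs are therefore matched by replicate number, and in that replicate the paired libraries may not share a culture.

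The named genes have a symbol, an FDR under 0.05, a mean of at least 10 CPM over the 8 libraries and the same direction in all 4 pairs (2019 genes), of which the 12 largest rises and falls were taken, with the 5 largest gains and losses in mean CPM and, from 47 gene lists written from general knowledge, the 3 largest rises and falls and the most abundant member. The gene lists and the comparison were chosen with earlier results of these data known. Alternatives were 3 other scalings, scaling without ribosomal RNA and mitochondrially encoded genes, only the libraries compared, a replicate block, the edgeR likelihood ratio test, DESeq2 1.42.0, 2 other filters and leaving out each replicate. Symbols came from RefSeq and Ensembl annotation on WBcel235, joined by sequence name. No coordinates or sequences are given.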

Additional observations from a re-analysis of the deposited data

Results flagged for a closer look

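In 10 of 182 groups of 4 library values examined, 1 library lay far from the other 3 by Dixon's criterion, which chance gives in about 1 of 20 groups. The values are CPM of xbp-1 at 192 h (883, replicate 5), CPM of pod-2 at 288 h (322, replicate 1), and the summed CPM at 192 h of pharyngeal muscle genes (7213, replicate 5), cell death genes (3006, replicate 5), lysozymes and antimicrobial peptides (5759, replicate 8) and synaptic genes (10881, replicate 5). The summed CPM at 288 h of F-box A genes (1171, replicate 5) and hedgehog-related genes (127, replicate 5) and the share of counts in the 50 most abundant genes at 288 h (22.1%, replicate 6) and at 192 h (23.1%, replicate 8) complete them.

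The change from 192 to 288 h differed from that from 24 to 96 h in 3711 genes by the edgeR test of the difference, and in 22 of the 24 genes with the largest rises and falls. Those 24 were picked for their change from 192 to 288 h, which is part of the difference tested. The count of 22 thus follows largely from that choice. As log2 differences of the changes, the rises gave pgp-6 4.22, pgp-7 4.17, fbxc-58 3.81, irg-2 3.79, rop-1 2.59, crn-4 2.48, fasn-1 2.37, arl-7 1.89, cnp-3 1.86 and hsp-4 1.45. The falls gave nspc-12 -4.33, kola-5 -2.995, pqn-75 -2.75, nspc-20 -2.65, myo-2 -2.58, myo-1 -2.16, unc-54 -2.09, asp-2 -2.05, hrg-11.3 -1.92, lmd-5 -1.71, nas-9 -1.31 and nep-17 -0.72. pgp-6 and pgp-7 had fallen early and rose late, and nspc-12 had risen early and fell late.

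Reads that aligned outside annotated genes, which enter none of the gene values, averaged 6.10% of aligned reads at 288 h and 4.42% at 192 h.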

How the results depend on the processing

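The share of higher genes among those changed, 29.9%, was 61.5% without scaling factors, 49.5% with upper-quartile factors, 37.4% with DESeq2 size factors, 30.99% when ribosomal RNA and mitochondrially encoded genes were left out of the scaling, 37.8% with only the libraries compared, 31.1% with the likelihood ratio test, 38.2% with DESeq2, 22.97% with no filter, 46.1% for genes of at least 10 CPM and 26.0 to 34.9% without 1 of the replicates. Without the 288 h library of replicate 5, chosen after seeing the data, it was 36.1%, with 1529 higher and 2712 lower genes. Genes higher numbered 829 without a filter, 2035 without scaling factors and 2096 with upper-quartile factors. Genes lower numbered 1273 without scaling factors and 1950 at 10 CPM or more. The difference of the intervals was called in 2467 genes without scaling factors. Without 1 of the replicates, 3111 to 3648 genes changed, 841 to 1272 higher and 2270 to 2500 lower, and 2502 to 3163 differed between intervals. With the replicate block 5111 genes changed, 33.4% of them higher, and with the block on only the libraries compared 2680 were higher (45.5%). The block changed no call among 228 genes examined by name except 5 gained. Causes were not tested beyond what each setting changes by construction.

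Of 192 such genes past the threshold, 38 lost the call without 1 of the replicates, and none reversed in any setting. Without scaling factors 29 lost the call and 4 others gained it. These numbers were 10 and 3 with upper-quartile factors, 10 and 1 with only the libraries compared, and 19 and 1 with no filter. No vitellogenin gene averaged 10 CPM over all libraries, so that filter gave no value for them. Depth limits genes under 1 CPM, of which 131 of 3141 passed.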

Other observations

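Several gene lists belong to none of the comparisons above and are given as counts. With TMM, 7.39% of all genes tested were higher and 17.4% lower, the shares to set beside the counts here and in the next paragraph. Cuticle collagens gave 2 higher and 13 lower of 167, among them col-147 (log2 -2.08) and col-39 (-1.85), and the hypodermis and seam list gave 0 and 6 of 24, including the intermediate filament ifb-1 (-1.54). Nuclear hormone receptors gave 18 higher (7.5%) and 31 lower (12.9%) of 240, no more than those shares by much in either direction, with nhr-17 at 1.197 ± 0.18. Without scaling factors these receptors gave 34 higher and 11 lower, without replicate 6 the higher count was 11, and with replicate as a block it was 28. Cytochrome P450 genes gave 5 and 18 of 78, with cyp-37B1 at -1.57, and 10 and 7 without scaling factors. Homeobox ceh genes gave 4 (7.27%) and 6 (10.9%) of 55, hedgehog-related genes 3 and 1 of 51, sensory cilia genes 1 and 3 of 37, and prion-like abu and pqn genes 4 and 12 of 58. Histone genes gave 1 and 4 of 19, with the linker histones his-24 at -0.98 and hil-1 at -0.90, and DNA replication genes gave 2 and 1 of 25, with rpa-2, a subunit of replication protein A, at 0.79. Without any 1 replicate the higher counts ranged from 0 to 2 for collagens, 2 to 5 for P450 genes, 2 to 4 for ceh genes, 0 to 3 for hedgehog-related genes, 2 to 5 for abu and pqn genes, 0 to 1 for histones and 1 to 2 for DNA replication, and with replicate as a block they were 5 for collagens, 8 for P450 genes and 7 for abu and pqn genes. Without scaling factors the ceh genes gave 7 higher and 1 lower, the cilia genes 1 and 0 and the abu and pqn genes 10 and 8.

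Fat breakdown and lipase genes gave 4 higher and 15 lower of 52, genes of the glyoxylate, trehalose and glycogen routes 2 and 9 of 21, AMPK and TOR genes 2 and 6 of 25, the insulin pathway 1 and 5 of 13 and insulin-like peptides 1 and 5 of 25, with ins-35 at -1.49. Without scaling factors these 5 lists gave 4 and 8, 2 and 4, 4 and 2, 1 and 3, and 2 and 2, in that order, and without any 1 replicate their lower counts ranged from 11 to 15, 4 to 8, 4 to 5, 3 to 4 and 3 to 4. Maternal RNA-binding proteins gave 1 and 1 of 29, and ribosomal RNA 0 and 0 of 5. Of 6 vitellogenin genes, which encode yolk proteins made in adult hermaphrodites, 3 were tested and 2 rose, vit-6 by 1.68 ± 0.38. The 3, which can share reads, summed to 22.4 to 54.8 CPM at 288 h and to 8.35 to 17.2 CPM at 192 h, and the higher count was 1 without replicate 1 or 8. The study describes the animals of these libraries as starved L1 larvae.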
